A study of Arabidopsis thaliana with 27 samples.

Results

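The genes described here were expressed at lower levels at 24 than at 3 hours after sowing (HAS) in both dissected compartments of dormant (D) seeds of Arabidopsis thaliana, accession CVI, and were mostly well expressed in the dry seed. They were 101 of the 21313 genes measured. A gene was a member when its mean log2 level was at least 3-fold lower at 24 than at 3 HAS in the MCE (micropylar and chalazal endosperm) and in the RAD (radicle and hypocotyl), with group means below 4 raised to 4. Of all genes, 1.05% had this fall in the MCE, 1.31% in the RAD and 0.601% in both, which was 128 genes. Of these, 27 were left out because they were also at least 3-fold higher at 3 HAS than in dry seeds in both compartments. The values at 3 and 24 HAS and in dry seeds therefore chose the members, and everything built on them is given below as a description without a test. The arrays at 7 and 12 HAS took no part in the choice and carry the tests, although the step between them lies inside the interval of the required fall.

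RNA of 27 samples was hybridized to Affymetrix ATH1 gene chips, with 3 arrays for each of 9 groups: whole D dry seeds, and the MCE and RAD of D seeds after 3, 7, 12, or 24 h of imbibition in water. The labels give a single genotype, CVI, for all groups, from plants grown in 3 replicates on rockwool, and name no agent other than water. The RAD samples went through a column kit and the MCE and dry seed samples through a hot borate method, so compartment and isolation method cannot be told apart wherever the MCE and the RAD, or the RAD and dry seeds, are set against each other. Nothing in the labels says that the 3 arrays of a group came from separate dissections, so the p-values measure only the spread between these samples, which may be technical.

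Replicate arrays correlated at 0.987 to 0.996 over all genes, and the median SD of a member within a group was 0.20 on the log2 scale. The median change of all genes was within 0.1 of 0 in every step of the time course. The endosperm marker EPR1 had a mean over the 4 time points of 13.73 in the MCE and of 6.72 in the RAD, where it was 7.27 at 3 HAS and 6.44 at 24 HAS. Of the other endosperm markers, MAN7 had means of 6.68 and 5.31, while EXPA2 and NAC025 were below 5, a level hard to tell from noise on these arrays, in all groups. Of the root markers, SCR was above 5 in both compartments, with means of 7.43 for the MCE and 7.90 for the RAD, while PLT1, PLT2 and SHR were below 5 in all groups, and PLT2 had means of 4.62 for the RAD and 3.18 for the MCE. The part of carried-over endosperm RNA in the falls seen in the RAD was not tested.

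Mature seeds store messenger RNA that was made during maturation on the mother plant, and part of it is degraded once the seed takes up water. Dormant seeds imbibe and resume metabolism but do not complete germination. Nitrate, sugars, abscisic acid, and gibberellin are all known to act on the depth of dormancy, and DOG1 is a central dormancy gene of Arabidopsis. In whole tissue a lower level can stand for fewer cells with the transcript or for less transcript per cell, and these cannot be told apart.

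Most of the fall lay before 12 HAS. The median log2 difference between 24 and 3 HAS was -2.03 for the MCE and -2.07 for the RAD. By 7 HAS the median member had reached 55.3% of its fall in the MCE and 53.5% of that in the RAD. By 12 HAS it was 84.9% in both compartments. The time at which 50% of the fall was reached, by linear interpolation between time points, had a median of 6.62 h in the MCE (range 5.08 to 15.9 h) and 6.74 h in the RAD (range 4.76 to 18.6 h). It lay at or before 7 HAS in 59 members in the MCE and 55 in the RAD, between 7 and 12 HAS in 39 and 38, and later in 3 and 8. The step from 3 to 7 HAS was the largest of the 3 steps in 65 members in the MCE and 66 in the RAD. The step from 12 to 24 HAS was the largest in 6 and 14. The mean was lower at each successive time point in 78 members in the MCE and 81 in the RAD. In all 101 members the 3 arrays at 24 HAS lay below the 3 at 3 HAS in both compartments, where this held for 22.9% (MCE) and 23.2% (RAD) of all genes. It follows largely from the rule. At 24 HAS, 15 members in the MCE and 24 in the RAD were at or below 5, so the end of their fall cannot be followed further.

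**Figure D1:**
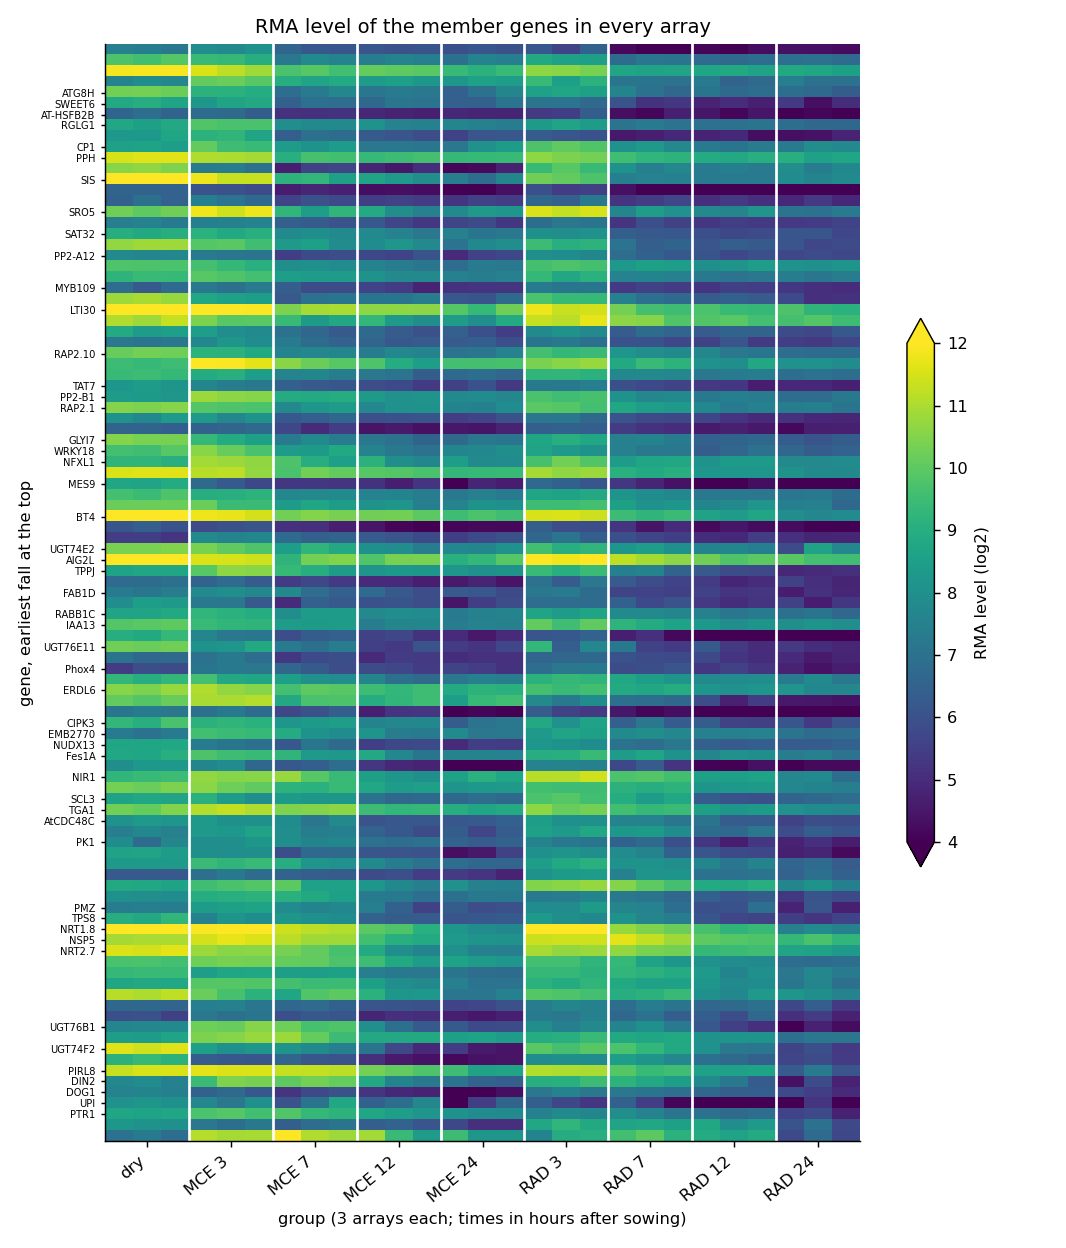
RMA level (log2, colour) of the 101 genes (lines, ordered from the earliest to the latest mean time of 50% fall) in the 27 arrays (columns, 3 for each group of dry seeds, MCE and RAD at 3 to 24 HAS). Genes with a symbol are labelled; levels drop from 3 to 7 HAS in the genes at the early end and after 7 HAS in those at the late end.

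The order of fall was similar in the MCE and the RAD. At least 50% of the fall was reached by 7 HAS in both compartments in 47 members (early members) and in neither in 34 (late members). The other members were early in the MCE but not in the RAD (12) or in the RAD but not in the MCE (8). Across the 101 members the shares reached at 7 HAS in the MCE and in the RAD had a Pearson r of 0.747 and a Spearman rho of 0.720. This is a description over genes, which are not independent of each other, and the compartments share no arrays. Early members had median changes relative to 3 HAS of -1.40 at 7 HAS, -1.82 at 12 HAS and -1.93 at 24 HAS in the MCE, and of -1.47, -1.84 and -2.0 in the RAD. Late members had -0.43, -1.74 and -2.28 in the MCE, and -0.45, -1.59 and -2.41 in the RAD. The difference at 7 HAS defines these classes. It also bears on the values at 24 HAS, since a larger fall from 3 to 24 HAS makes the share reached at 7 HAS smaller.

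**Figure D2:**
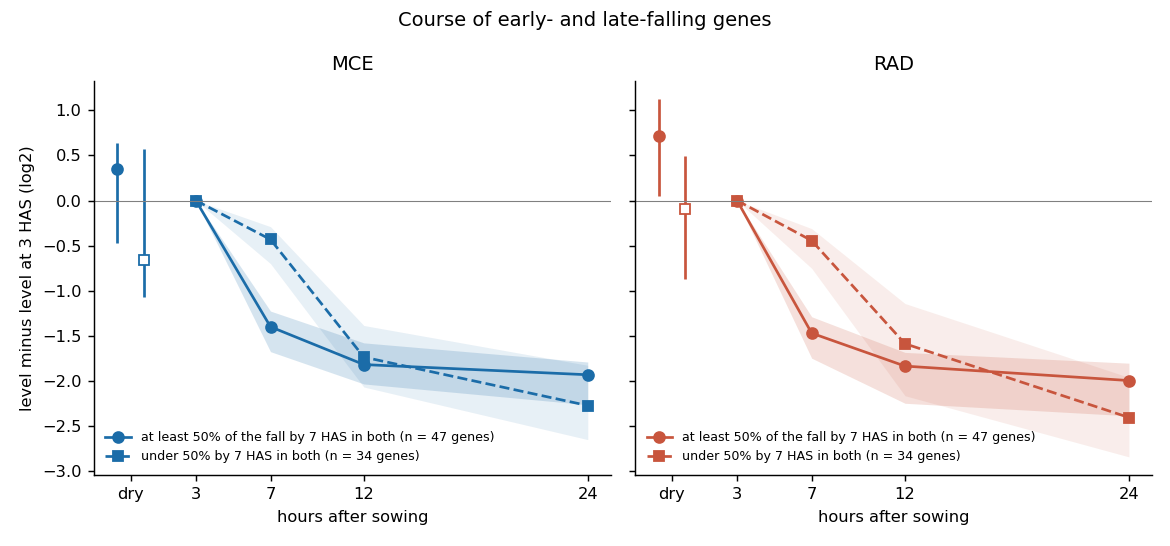
Level minus the level at 3 HAS (log2, vertical axis) against hours after sowing for early members (filled circles, solid lines, 47 genes) and late members (squares, open for dry seeds, dashed lines, 34 genes) in the MCE (left) and the RAD (right); points are medians over genes, and bands and bars span the quartiles. The points above "dry" give the dry seed level, with medians of 0.35 and 0.72 for early members and -0.66 and -0.09 for late members.

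The earliest members by the share reached at 7 HAS were AT3G57380, AT1G13990, and AT2G38820, none of which carries a gene symbol in the reference table used. AT3G57380 had arrays of 7.94, 7.76 and 8.10 at 3 HAS and of 6.61, 6.19 and 6.14 at 7 HAS in the MCE, and of 6.17, 5.66 and 6.47 and then 4.21, 4.02 and 3.98 in the RAD. It had thus reached 84.6% and 113% of its fall at 7 HAS, and its level in the RAD then stayed at 4.11 and 4.31, near the floor. AT1G13990 had reached 89.0% and 93.9%, and AT2G38820 77.3% and 102%. Values above 100% mean that the level at 7 HAS was below that at 24 HAS.

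The latest members by the share reached at 7 HAS were AT3G09440, AT3G04000, and the trehalose-phosphate synthase family gene TPS8. By the mean time of 50% fall the latest were AT3G09440 (14.9 h), AT1G16510 (14.9 h) and PTR1 (12.5 h), whereas TPS8 was at 9.85 h. Their negative shares mean that the level at 7 HAS was at or above that at 3 HAS in at least 1 compartment. TPS8 had arrays of 7.53, 8.15 and 7.88 at 3 HAS, 8.24, 8.01 and 7.88 at 7 HAS and 6.51, 6.35 and 6.29 at 12 HAS in the MCE. In the RAD its arrays were 8.29, 7.98 and 7.74, then 8.10, 7.64 and 7.36, then 6.13, 5.71 and 5.63. Its arrays at 3 and 7 HAS overlapped in both compartments, and those at 7 and 12 HAS did not overlap in either. AT3G09440 had a higher mean at 7 HAS (9.56) than at 3 HAS (8.54) in the RAD, and reached its 50% point only at 11.3 h in the MCE and at 18.6 h in the RAD. AT3G04000 had shares of -2.67% and -8.59% at 7 HAS, and 80.4% and 53.1% at 12 HAS.

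**Figure D3:**
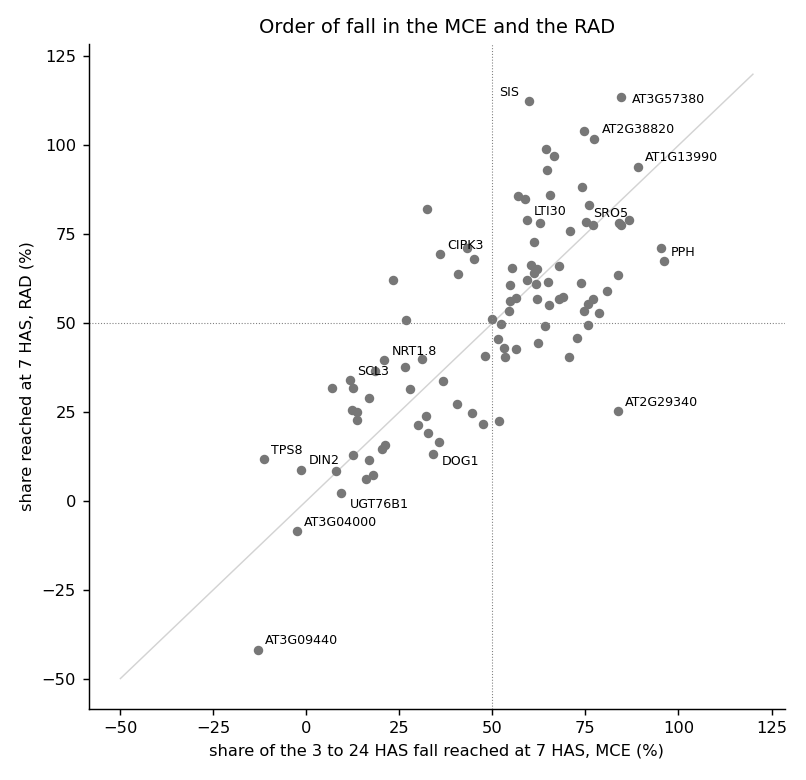
Share of the 3 to 24 HAS fall reached at 7 HAS in the MCE (horizontal axis, %) and in the RAD (vertical axis, %), 1 point for each of the 101 genes; dotted lines mark 50% and the grey line equality. The upper right corner holds the 47 early members and the lower left the 34 late ones, with AT3G09440 lowest and AT2G29340 far below the line.

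Most members were well expressed in dry seeds, which the rule favours. It needs a level at 3 HAS well above the floor and leaves out genes much lower in dry seeds in both compartments. The dry seed level of the members had a median of 8.77 (range 5.38 to 12.59), against 4.59 for all genes. Genes with the fall in only 1 compartment had medians of 7.24 (MCE) and 8.31 (RAD). All 101 members were above 5, 72 were above 8 and 29 above 10, where 45.7%, 15.5% and 3.5% of all genes were. The dry seed was the group with the highest mean in 47 members, the MCE at 3 HAS in 38, the RAD at 3 HAS in 14, and the MCE at 7 HAS in 2. In 94 members the dry seed level was above that at 24 HAS in both compartments, and in 64 it was at least 3-fold above. Since dry seeds were measured whole, each comparison with a compartment also compares tissues.

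Relative to 3 HAS the dry seed level varied between members. It was within 2-fold of 3 HAS in both compartments in 43 members, at least 2-fold higher in both in 11, at least 2-fold lower in both in 12, and differently placed in the remaining 35. The 27 genes left out for their rise from dry seeds had a median dry seed level of 5.33. The dry seed level minus that at 3 HAS (mean of the compartments) had a median of 0.47 over the early members and of -0.36 over the late ones. The dry seed difference and the share reached at 7 HAS both use the arrays at 3 HAS, so that this is a description of the members only.

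The members highest in dry seeds relative to 3 HAS were UGT74F2, AT1G12320, and MES9, a methyl esterase family gene. MES9 had arrays of 8.74, 8.66 and 8.92 in dry seeds, 6.78, 6.26 and 5.72 in the MCE at 3 HAS and 6.73, 6.49 and 6.14 in the RAD at 3 HAS. Its means at 24 HAS were 4.47 and 3.6, and its mean was lower at each sampled time from the dry seed on in both compartments. AT1G12320 had a dry seed mean of 9.05, against 7.31 in the MCE and 6.28 in the RAD at 3 HAS. The other members at least 2-fold higher in dry seeds included the autophagy gene ATG8H, TPS8, UGT76E11 and GLYI7, a glyoxalase family gene.

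At the opposite end were AT3G09440, AT4G36010 and DIN2, which had higher levels at 3 HAS than in dry seeds and passed the 3-fold limit in the MCE but not in the RAD. AT3G09440 had arrays of 7.00, 7.31 and 6.86 in dry seeds, of 11.12, 10.93 and 10.96 in the MCE and of 7.6, 8.96 and 9.05 in the RAD at 3 HAS. The gap to the dry seed was therefore large in the MCE and smaller, with a wide spread, in the RAD. AT4G36010 had means of 9.46 in dry seeds, 12.04 in the MCE and 10.57 in the RAD at 3 HAS, and ended at 9.64 and 7.98, close to or below the dry seed. SRO5, a gene of the core hypoxia list, the splicing gene EMB2770 and the nitrite reductase gene NIR1 also belonged to these 12 members.

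The genes of nitrate and peptide transport and nitrogen assimilation were all late. This group, like the other role groups below, was drawn up from the members' annotation after their values were known. Each of its 4 genes was below 50% of its fall at 7 HAS in both compartments. NRT1.8, a low-affinity nitrate transporter, ranked first by the smaller of its falls in the compartments, 17.6-fold in the MCE and 26.5-fold in the RAD. Its arrays were 12.17, 12.32 and 12.23 in dry seeds, a level reached by 3 other members. In the MCE it had a mean of 12.08 ± 0.13 (SD, 3 arrays) at 3 HAS and arrays of 11.39, 11.21 and 11.06 at 7 HAS, 9.97, 9.80 and 9.07 at 12 HAS, and 8.24, 7.88 and 7.73 at 24 HAS. In the RAD they were 12.44, 12.41 and 12.21, then 10.78, 10.46 and 10.21, then 9.69, 9.23 and 9.38, and at last 7.49, 7.87 and 7.5. No 2 successive time points overlapped in either compartment.

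NRT2.7, the nitrate transporter of the seed vacuole, was highest in dry seeds, with arrays of 11.56, 11.50 and 11.67, and had means of 10.66 in the MCE and 10.81 in the RAD at 3 HAS. Its 12 HAS arrays were 8.9, 7.94 and 7.6 in the MCE and 9.32, 9.45 and 9.53 in the RAD. They did not overlap, and at 24 HAS the means were 7.65 and 8.52. NIR1 reached its lowest MCE mean at 12 HAS (8.26) and stood at 8.79 at 24 HAS, whereas in the RAD it went from 11.24 at 3 HAS to 7.46. The di- and tripeptide transporter PTR1 was the latest of the group in the RAD, with 6.14% of its fall reached at 7 HAS and 34.2% at 12 HAS.

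Of the 4 UDP-glycosyltransferase genes, which encode enzymes that attach sugars to small molecules, UGT76B1 and UGT74F2 were among the 6 members with the largest falls and were both late. UGT76B1 had arrays of 7.63, 7.69 and 7.80 in dry seeds. In the MCE it had 10.22, 10.14 and 10.54 at 3 HAS, 10.23, 9.67 and 9.80 at 7 HAS, 8.02, 6.96 and 6.28 at 12 HAS, and 6.26, 5.80 and 5.83 at 24 HAS. In the RAD it had 7.97, 7.46 and 7.78, then 7.61, 8.03 and 7.32, then 6.17, 5.52 and 5.07, and then 2.83, 4.75 and 4.27. The level in the RAD at 3 HAS was that of the dry seed, while the MCE was far above it, and arrays at 3 and 7 HAS overlapped in both compartments.

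UGT74F2, which acts on salicylic acid, showed the reverse placement. Its arrays were 11.60, 11.41 and 11.62 in dry seeds, 8.52, 8.01 and 8.2 in the MCE and 9.94, 9.64 and 9.93 in the RAD at 3 HAS. It ended at means of 4.80 in the MCE, where the level is hard to tell from noise, and 5.64 in the RAD, an 18.3-fold fall from 3 HAS. UGT76E11 and UGT74E2 were highest in dry seeds too, at means of 10.23 and 10.43, but their RAD arrays spread widely, with an SD of 1.45 for UGT76E11 at 3 HAS and 1.40 for UGT74E2 at 24 HAS.

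Genes of sugar metabolism and transport and of the breakdown of cell components reached 50% of their fall at very different times. The beta-glucosidase gene DIN2, known as a dark-induced gene, was late. Its MCE arrays were 9.47, 10.46 and 10.37 at 3 HAS, 10.02, 10.32 and 10.10 at 7 HAS, 8.83, 7.59 and 7.22 at 12 HAS, and 7.04, 6.53 and 6.43 at 24 HAS, and its dry seed arrays were 7.73, 7.85 and 7.52. The MCE level thus stood well above the dry seed at 3 and 7 HAS and ended below it. In the RAD its mean was 9.2 at 3 HAS and 4.98 at 24 HAS, just below the noise level.

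PPH, the pheophytinase of chlorophyll breakdown, was the opposite case. Its MCE arrays were 11.04, 11.03 and 10.92 at 3 HAS and 9.04, 9.69 and 9.58 at 7 HAS, and it had then reached 96.0% of its fall. It stayed at means of 9.50 and 9.37 afterwards. ATG8H and the sugar transporter gene SWEET6 were early in the same way, with 86.6% and 95.3% of the MCE fall reached at 7 HAS. TPPJ, a trehalose-6-phosphate phosphatase gene, had a 4.84-fold fall in the MCE and a 19.7-fold fall in the RAD. ERDL6, an exporter of glucose from the vacuole, lay close to the limit of the rule, with log2 differences of -1.71 and -1.69 between 24 and 3 HAS.

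Of the 10 members grouped as transcription regulators, 7 were early in both compartments. BT4, a BTB and TAZ domain protein gene, had dry seed arrays of 11.98, 12.08 and 12.16. Its means were 11.67 at 3 HAS and 10.39 at 7 HAS in the MCE, against 11.48 and 9.4 in the RAD. At 24 HAS they were 9.6 and 7.82. The AP2/ERF genes RAP2.1 and RAP2.10 had near-equal courses, with 78.7% and 77.1% of the fall at 7 HAS in the MCE and 52.8% and 56.9% in the RAD. WRKY18, NFXL1, MYB109 and the heat shock factor gene AT-HSFB2B were the other early ones. IAA13, an auxin response repressor, lay at the border with 49.9% and 51.1%. TGA1, a bZIP factor, and SCL3, a GRAS protein of gibberellin signalling, were late.

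DOG1 was a late member with lower levels in the MCE than in the RAD. Its dry seed arrays were 7.55, 7.6 and 7.47. In the MCE its arrays were 6.48, 6.76 and 6.2 at 3 HAS, 5.22, 5.76 and 5.99 at 7 HAS, 5.21, 4.9 and 4.76 at 12 HAS, and 3.83, 4.01 and 4.34 at 24 HAS. In the RAD they were 7.16, 7.59 and 7.2, then 7.17, 7.11 and 6.92, then 6.67, 6.42 and 6.39, and then 5.79, 5.48 and 4.96. The RAD at 3 HAS thus overlapped with the dry seed, all 3 MCE arrays lay below it, and the MCE passed below the noise level of 5 by 24 HAS.

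Among the other dormancy and stress genes, the core hypoxia gene SRO5 was early and was among those with the largest falls. Its arrays were 10.25, 10.02 and 10.27 in dry seeds and 11.84, 11.43 and 11.81 in the MCE and 11.57, 11.30 and 11.51 in the RAD at 3 HAS. At 7 HAS they were 9.26, 8.49 and 9.25 in the MCE and 7.68, 8.48 and 8.06 in the RAD, below the dry seed in both. The salt-responsive gene SIS had the most uneven fall of this group, 17.8-fold in the MCE and 4.80-fold in the RAD, where its mean at 7 HAS, 7.5, was already below that at 24 HAS, 7.78. LTI30, a dehydrin gene, had the highest dry seed level of all members, 12.59, and was early, with means of 9.83 and 9.38 at 24 HAS. AT4G33070, annotated as the pyruvate decarboxylase gene PDC1, was late, with means of 9.71 in the MCE and 10.60 in the RAD at 3 HAS and 7.67 and 7.75 at 24 HAS. The kinase gene CIPK3 was late in the MCE (36.0% at 7 HAS) and early in the RAD (69.3%).

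Genes of protein and RNA quality control made up 6 members. The ubiquitin ligase gene RGLG1 was early, with 84.6% and 77.7% of the fall at 7 HAS. AtCDC48C, an AAA-type ATPase gene, was late, with 27.8% and 31.4%. AT1G54050 had a dry seed mean of 11.06, with means of 10.10 and 8.4 at 3 and 24 HAS in the MCE and of 11.39 and 9.67 in the RAD. Fes1A, a chaperone cofactor gene, EMB2770 and AT1G77680, annotated as an RRP44-type exonuclease gene, completed the group. The remaining 62 members were not grouped by role, and the role groups need not hold every member of their role. The dry seed levels of these 62 members ranged from 5.38 to 12.27, and 29 of them were early and 19 late. AT5G02230, one of the 6 members with the largest falls, was among them. Its means of 7.42 in the MCE and 7.54 in the RAD at 3 HAS were followed by 3.65 and 4.0 at 24 HAS, below the floor, so that its falls are only bounds, at least 10.7-fold and 11.6-fold.

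**Figure D4:**
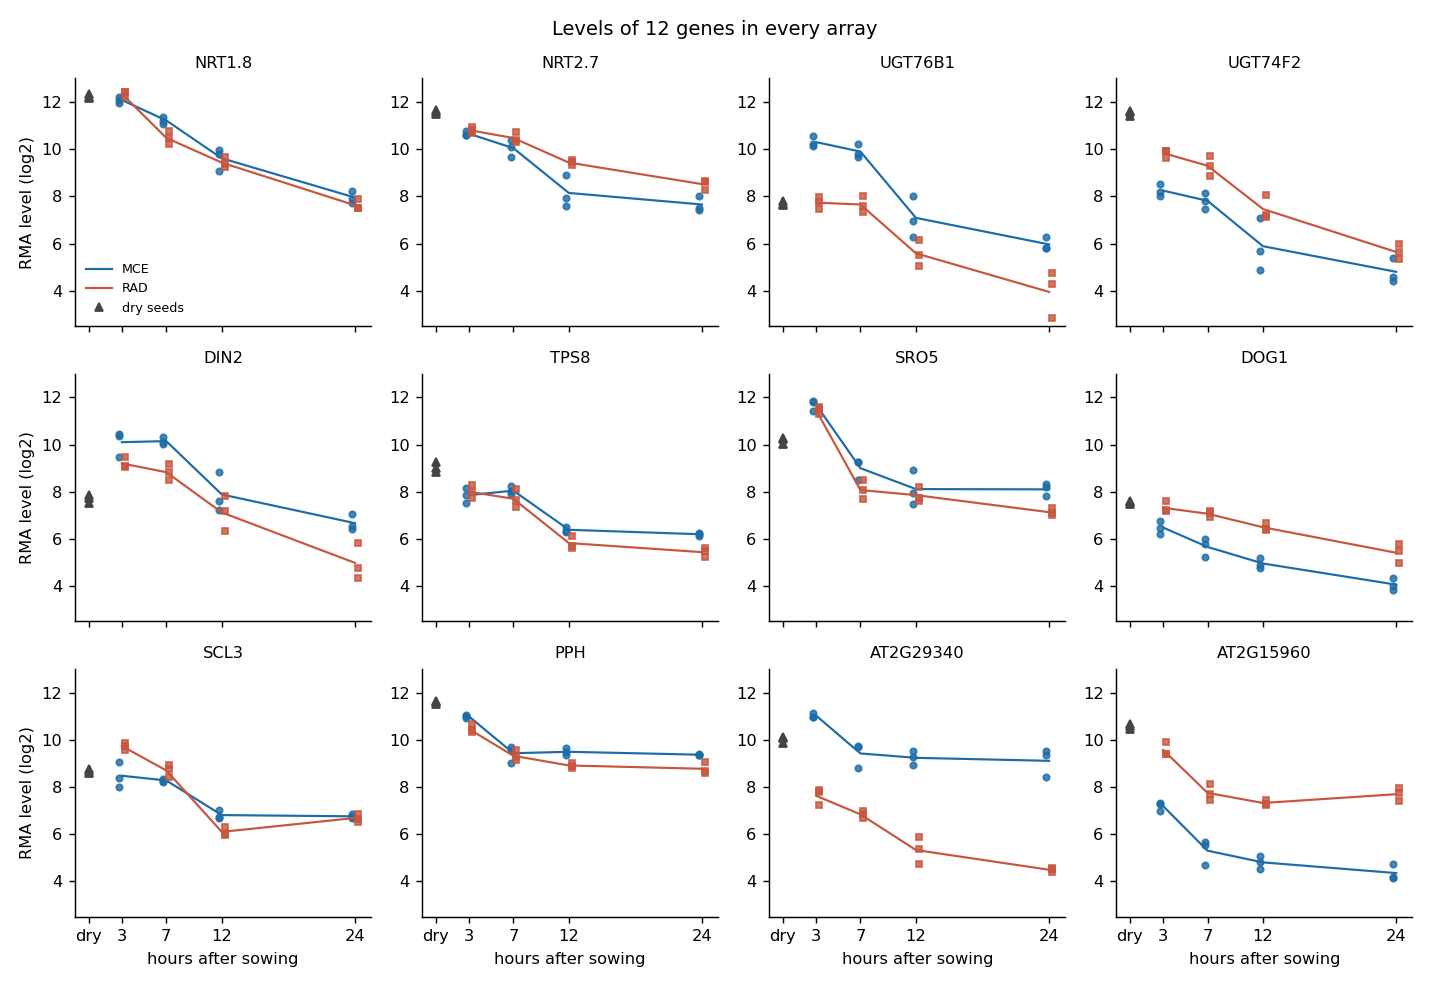
RMA level (log2) of 12 genes in each array against hours after sowing, with dry seeds (triangles), the MCE (blue circles) and the RAD (red squares); lines join group means. PPH and SRO5 drop by 7 HAS, UGT76B1, DIN2 and TPS8 only after 7 HAS, and UGT74F2 and AT2G15960 are highest in dry seeds.

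The step from 7 to 12 HAS was tested with arrays that the rule did not use. It lies inside the interval of the required fall, so the rule itself favours falls over rises in this step. With limma and Benjamini-Hochberg adjustment over all 21313 genes, 61 of the 101 members fell from 7 to 12 HAS in the MCE and 48 in the RAD, at an adjusted p below 0.05. Of all genes, 5.62% fell in the MCE and 2.74% in the RAD. Of the 27 genes left out for their rise from dry seeds, 14 fell in the MCE and 9 in the RAD. Genes chosen for a fall in 1 compartment had like shares in it. They were 47.9% in the MCE for the MCE-only genes and 46.4% in the RAD for the RAD-only genes. No member rose in either compartment by limma (0 at an unadjusted p below 0.05 and 0 by the t-test), where 6.42% and 2.36% of all genes rose. The median log2 difference of the members was -0.69 for the MCE and -0.65 for the RAD, against 0.00 for all genes in both. The mean was lower at 12 HAS in 94 members for the MCE and in 99 for the RAD. Both compartments were called in 38 members, the MCE alone in 23, the RAD alone in 10, and neither in 30.

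The count of 61 in the MCE became 37 without replicate 3 of the MCE at 12 HAS, and that of 48 in the RAD became 30 without replicate 1 of the RAD at 7 HAS. The t-test used in the study's methods, run gene by gene on 3 against 3 arrays, called 0 members in either compartment after the same adjustment, and 50 and 62 at an unadjusted p below 0.05.

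The largest falls from 7 to 12 HAS in the MCE were those of UGT76B1, DIN2 and UGT74F2, and the largest in the RAD those of SCL3, UGT76B1 and TPS8. UGT76B1 fell 7.02-fold in the MCE (log2 difference -2.81, SE 0.37, limma adjusted p = 1.28e-05) and 4.2-fold in the RAD (-2.07, SE 0.37, adjusted p = 0.000885). DIN2 fell 4.80-fold in the MCE (limma adjusted p = 0.00017) and 3.26-fold in the RAD (adjusted p = 0.0054). UGT74F2 fell 3.80-fold in the MCE (limma adjusted p = 0.000627) and 3.57-fold in the RAD (adjusted p = 0.0019), although its 12 HAS arrays in the MCE, 7.08, 5.70 and 4.88, spread with an SD of 1.12. TPS8 fell 3.16-fold and 3.67-fold (limma adjusted p = 1.33e-06 and 6.38e-07).

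In the nitrogen group, all 4 genes fell from 7 to 12 HAS in the MCE and 3 in the RAD. Of all members, 60.4% fell in the MCE and 47.5% in the RAD. The group was drawn up after the values were known, and its genes were all late. Late members had most of their fall still to come after 7 HAS, which favours such calls. The counts of this group are therefore a description and do not set it apart. NRT1.8 fell by 1.60 on the log2 scale in the MCE and by 1.05 in the RAD (limma adjusted p = 2.44e-06 and 0.000814). PTR1 had a log2 difference of -0.65 in the RAD (SE 0.21, limma adjusted p = 0.0857). Of the 10 transcription regulators, 6 fell in each compartment, and of the 8 dormancy and stress genes 5 fell in the MCE and 1, AT4G33070, in the RAD. DOG1 fell by 0.70 in the MCE (limma adjusted p = 0.0192), while its log2 difference in the RAD was -0.57 (SE 0.20, adjusted p = 0.103). SRO5, with most of its fall before 7 HAS, fell by 0.89 in the MCE (limma adjusted p = 0.0235) and had -0.22 in the RAD (SE 0.26, adjusted p = 0.769).

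**Figure D5:**
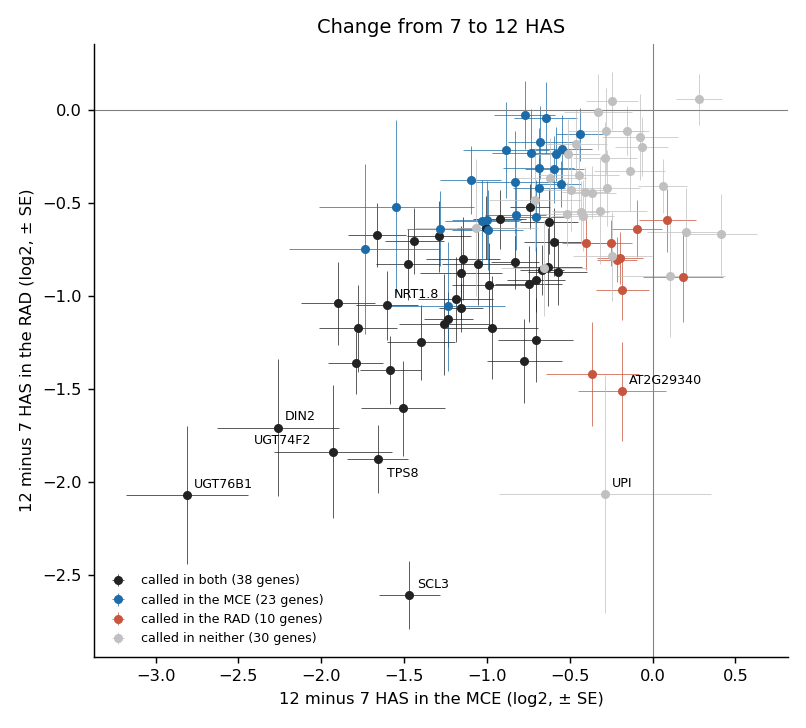
Log2 difference between 12 and 7 HAS in the MCE (horizontal axis) and the RAD (vertical axis) for the 101 genes, with SE bars from limma, coloured by the compartments in which the adjusted p was below 0.05. UGT76B1 lies furthest to the left and SCL3 lowest, and no difference above 0 passed the test.

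The change from 7 to 12 HAS differed between compartments for SCL3 only, 1 of 101 members (0.99%). This was near the share of all genes with such a difference, 0.816%. Towards the MCE, as for SCL3, the share of all genes was 0.474%. It was 0.343% towards the RAD, a direction with 0 members by limma (10 at an unadjusted p below 0.05). SCL3 had arrays of 8.36, 8.23 and 8.24 at 7 HAS and of 7.02, 6.67 and 6.74 at 12 HAS in the MCE. In the RAD it had 8.94, 8.43 and 8.75, and then 6.33, 6.01 and 5.96. It fell 2.77-fold in the MCE and 6.09-fold in the RAD (limma adjusted p = 5.78e-06 and 2.65e-09), and at 12 HAS it was lower in the RAD than in the MCE (limma adjusted p = 0.00226). The difference between these changes, MCE minus RAD, was 1.14 on the log2 scale (SE 0.26, adjusted p = 0.0279), and the call was lost in 7 of the 12 fits that left out 1 array of these groups. AT4G22530 came next, with a difference of -0.99 (SE 0.24, limma adjusted p = 0.0508).

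Levels between the compartments differed more often towards the MCE. At 7 HAS, 48 members were higher in the MCE and 17 in the RAD by limma, where 20.1% and 20.5% of all genes were, and at 12 HAS 47 and 19, where 20.8% and 20.9% were. The share of members higher in the RAD was thus near that of all genes. At both times 40 members were higher in the MCE and 14 in the RAD. By limma, 0 members were called on opposite sides at these times. The median difference of the members was 0.47 at 7 HAS and 0.42 at 12 HAS, MCE minus RAD, against -0.06 and -0.08 for all genes.

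AT2G29340 had the largest difference towards the MCE at both times. Its MCE arrays were 8.82, 9.70 and 9.75 at 7 HAS and 8.95, 9.26 and 9.51 at 12 HAS, and its RAD arrays 6.97, 6.86 and 6.70 and then 5.88, 4.72 and 5.39. The compartments did not overlap, and the difference was 5.99-fold at 7 HAS and 15.0-fold at 12 HAS (limma adjusted p = 1.08e-08 and 5.02e-12). UGT76B1 was 4.74-fold higher in the MCE at 7 HAS (limma adjusted p = 1.69e-05). UPI, a serine protease inhibitor gene, was higher in the MCE at 12 HAS (limma adjusted p = 2.81e-05), with a mean of 7.03. Its RAD arrays were 3.74, 2.84 and 3.31, below the noise level, so no fold is given.

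Higher in the RAD by the most were AT2G15960, AT3G04000 and AT1G16510, annotated as the auxin-responsive gene SAUR41. AT2G15960 had 4.68, 5.55 and 5.68 in the MCE and 8.12, 7.43 and 7.72 in the RAD at 7 HAS, a 5.48-fold difference (limma adjusted p = 1.24e-09). At 12 HAS the means were 4.81 and 7.32 (limma adjusted p = 7.41e-10), with the MCE below the noise level. Its dry seed arrays, 10.59, 10.67 and 10.47, were above both. AT1G16510 was 3.68-fold higher in the RAD at 7 HAS, and AT3G04000 was higher in the RAD at 12 HAS, with means of 6.72 and, below the noise level, 4.69 in the MCE (limma adjusted p = 5.16e-07 and 1.32e-09). DOG1 was 2.65-fold higher in the RAD at 7 HAS and also higher at 12 HAS, where its MCE mean was 4.96 (limma adjusted p = 1.84e-06 and 4.5e-07). Of the 7 genes of sugar metabolism, transport and breakdown, 4 were higher in the MCE at 7 HAS and 5 at 12 HAS, while 0 were higher in the RAD by limma. Of all 101 members, 47.5% and 46.5% were higher in the MCE at these times, and 16.8% and 18.8% in the RAD. Of all genes, 20.1% and 20.8% were higher in the MCE, and 20.5% and 20.9% in the RAD. So few genes do not set this group apart from the other members.

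The pathway lists examined held 6 of the members, which made up 0.474% of all genes. Of 50 core hypoxia genes measured, 3 (6%) were members: SRO5, AT4G33070 and AT3G03270. A further 11, among them the hemoglobin gene HB1 and the transcription factor gene LBD41, had the fall in both compartments but were left out for their rise from dry seeds. From 7 to 12 HAS, 15 core hypoxia genes fell and 1 rose in the MCE, and 15 fell and 0 rose in the RAD. These were 30% falling in each compartment, where 5.62% and 2.74% of all genes fell. Their median log2 differences were -0.36 and -0.24. AT3G03270 fell by 1.40 in the MCE and by 1.25 in the RAD (limma adjusted p = 4.1e-05 and 0.000319).

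Of 35 genes of abscisic acid metabolism, transport and signalling, DOG1 was the only member (2.86%), and the kinase gene OST1 was left out for its rise from dry seeds. In this list 5 genes fell and 3 rose from 7 to 12 HAS in the MCE, and 4 fell and 3 rose in the RAD. The falling shares were 14.3% and 11.4%, where 5.62% and 2.74% of all genes fell. The rising share was 8.57% in each, where 6.42% and 2.36% of all genes rose. The median log2 differences of the list were -0.02 and -0.00. Of 15 gibberellin genes, SCL3 was the only member (6.67%), with 4 (26.7%) falling in the MCE and 7 (46.7%) in the RAD over that step. Of the 17 genes measured from the list of heat shock factors and proteins, AT1G54050 was the only member (5.88%). In this list 4 (23.5%) fell in the MCE and 5 (29.4%) in the RAD over that step. The lists of ethylene genes (16 measured), LEA proteins (12) and rapid stress-response transcription factors (16) held no member. Over the same step 5 of the rapid stress-response genes (31.25%) fell in the MCE, close to the 30% of the core hypoxia genes. For the RAD it was 2 (12.5%), and 0 rose in either compartment. Of the ethylene genes, 1 (6.25%) fell and 0 rose in each compartment. Of the LEA genes, 0 fell in either and 1 rose in the MCE. The dehydrin gene LTI30 was not on the LEA list. Likewise, the heat shock factor gene AT-HSFB2B, also a member, was not on the heat shock list. The lists are not complete, so their counts of members hold for the listed genes only.

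The limit of the rule cuts through a continuous range. Just inside it, AT3G45830, AT4G17410 and EMB2770 had a smaller fall, of MCE and RAD, of 1.59 each on the log2 scale. Just outside it, the heat shock factor gene HSFA2, AT4G38930 and AGT had 1.58 each. A fall in only 1 compartment was seen in 96 genes in the MCE and 151 in the RAD. Those 96 genes fell from 7 to 12 HAS in 46 cases for the MCE and 14 for the RAD, and the 151 in 54 and 70 cases.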

How the data were processed

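RNA was measured on 27 Affymetrix ATH1 arrays. The authors deposited log2 values made with RMA (named in the submitters' processing notes), with 1 value per gene, and these log2 values were used as deposited. RMA normalizes the arrays to each other, so changes are relative to the other genes of the array. The deposited gene values still differed in distribution between groups. The median of all genes was 4.59 in dry seeds, 4.67 (MCE) and 4.65 (RAD) at 3 HAS, and 4.885 (MCE) and 4.82 (RAD) at 24 HAS. Gene symbols came from a RefSeq table (TAIR10.1), which matched 101 of the 101 members. Group means below 4 were raised to 4 for the rule and for shares of the fall, and tests used the unraised values. limma 3.58.1 in R 4.3.3 was fitted to the 9 groups (18 residual degrees of freedom), and a call was a Benjamini-Hochberg adjusted p below 0.05. The fit was tested on simulated data. The number of arrays limits the precision.

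Members and gene lists were chosen with earlier results of these data known. Genes were named by a fixed rule: the extremes of the fall, of its timing, of the dry seed level and of each test, the genes at the limit, and list members. Role groups and the genes named in them were chosen after the values were seen. Same-numbered arrays of the MCE at 7 and 12 HAS deviated together (lowest correlation 0.21 over the 3 numbers). For the RAD at 7 and 12 HAS the lowest correlation was -0.03. The main fit held the groups only, so the p-values and counts given above are unpaired, and replicate numbers entered only in an alternative with a replicate block. Alternatives were another normalization, variance setting, filter, floor, sample set and test, a replicate block, and leaving out each array.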

Additional observations from a re-analysis of the deposited data

Results flagged for a closer look

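SCL3 was singled out because its change from 7 to 12 HAS differed between the MCE and the RAD by a test of that difference: the change in the MCE minus that in the RAD was 1.14 on the log2 scale (SE 0.26, limma adjusted p = 0.0279, 3 arrays a group). SCL3 fell in both compartments, and all 3 arrays at 12 HAS lay below all 3 at 7 HAS in each. It was 1 of 101 members with such a call (0.99%), near the 0.816% of all genes. The call was lost when quantile normalization was applied again (1.03), and without replicate 1 or 3 of the MCE at 12 HAS, replicate 2 of the MCE at 7 HAS, replicate 2 or 3 of the RAD at 12 HAS, or replicate 1 or 3 of the RAD at 7 HAS (1.02 to 1.17).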

How the results depend on the processing

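The counts below rest on 3 arrays a group, and single arrays moved them. Leaving out 1 array in turn gave 37 to 62 members falling from 7 to 12 HAS in the MCE (37 without replicate 3 of the MCE at 12 HAS), 30 to 49 in the RAD (30 without replicate 1 of the RAD at 7 HAS), 44 to 50 and 14 to 19 higher in the MCE and in the RAD at 7 HAS, 42 to 51 and 17 to 19 at 12 HAS, and 0 to 4 members whose change differed between compartments. That count was 4 without replicate 1 of the MCE at 12 HAS or replicate 3 of the MCE at 7 HAS, 2 without replicate 1 of the RAD at 12 HAS, and 0 without replicate 3 of the MCE at 12 HAS, replicate 2 of the MCE at 7 HAS, replicate 2 or 3 of the RAD at 12 HAS, or replicate 3 of the RAD at 7 HAS. The count of members was 91 to 109, that of members with at least 50% of the fall by 7 HAS 48 to 67 in the MCE and 49 to 61 in the RAD, and that of members at least 2-fold higher or lower in dry seeds 10 to 14 and 11 to 13.

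The methods' t-test with Benjamini-Hochberg adjustment called 0 members falling from 7 to 12 HAS in each compartment (50 and 62 at an unadjusted p below 0.05), 28 higher in the MCE and 8 in the RAD at 7 HAS, and 10 higher in the RAD at 12 HAS. Requiring a 2-fold difference as well left 31 falling in the MCE, 21 in the RAD, 29 and 8 higher in the MCE and in the RAD at 7 HAS, and 22 and 10 at 12 HAS. A trended robust variance and a filter on dim genes each gave 2 members with a difference in change between compartments. The cause was not tested. With the replicate block, 61 members fell in the MCE and 50 did so in the RAD. The block moved no count by over 1.5 times. Relative to the median change of all genes, an alternative chosen after seeing the data, 60 and 48 fell. Raising means to 5 gave 88 members, no floor 107, medians of arrays 91 (86 shared), and a repeated quantile normalization 120. For single named genes no call changed direction under these alternatives: 1230 of the recomputed values kept their side of the threshold, 119 lost the call and 29 gained it.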

Other observations

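In some groups 1 array held the highest value of the 3 for most members. Replicate 1 of the MCE at 12 HAS was highest in 61 of the 101 members, where it was highest in 38.9% of all genes, and replicate 1 of the RAD at 7 HAS was highest in 61, where it was highest in 32.3% of all genes. Replicate 1 of the MCE at 3 HAS, an array that the rule used, was highest in 57, against 33.9% of all genes. Without it the rule gave 91 genes, with 12 members lost and 2 genes gained. Among the members with a wide spread in the MCE at 12 HAS, chosen after their values were seen, the arrays of AT3G09440 were 10.90, 9.38 and 8.44 in that group, those of NFXL1 9.13, 7.99 and 7.68, and those of Fes1A 8.83, 7.74 and 7.12. Replicate 3 of the RAD at 7 HAS was highest in 11 members.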
